A study of Homo sapiens with 9 samples.

Results

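Carbonic anhydrase 9 (CA9) and 7 other genes that handle acid in tumour cells were followed in 9 RNA-seq libraries of ES-2, a line of human ovarian cancer cells. The genes were chosen by name: 4 carbonic anhydrases (CA9, CA12, CA2 and CA13), the bicarbonate transporter SLC4A7, the lactate transporters SLC16A1 and SLC16A3, and basigin (BSG). All 8 names had a row among the 32997 genes of the deposited table, whose unit is RPKM, the reads of a gene scaled to its length and to the reads of the library. The 3 groups of 3 libraries that were compared are cells with an empty vector, cells overexpressing OTUB2, a deubiquitinating enzyme, and cells overexpressing SNX29P2, a pseudogene of the sorting nexin gene SNX29. All 3 groups were grown untreated in RPMI-1640 with fetal bovine serum, and the total RNA was extracted with TRIzol. The labels do not give the promoter of the constructs or whether the cells were a clone or a pool. Whether each library stands for a culture of its own is not stated either. A p-value here thus sets a difference only against the scatter among these samples, part or all of which may be technical.

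Cells that run on glycolysis make protons and lactate and must move them out. Carbonic anhydrases interconvert carbon dioxide with bicarbonate and a proton: CA9 and CA12 do so on the outer face of the plasma membrane, CA2 and CA13 in the cytosol. SLC4A7 brings in bicarbonate together with sodium, SLC16A1 (MCT1) and SLC16A3 (MCT4) carry lactate with a proton across the membrane, and BSG is the chaperone that takes both monocarboxylate transporters to the surface. CA9 is a well-known target of the hypoxia-inducible factors (HIF), as is SLC16A3, and CA9 protein is used as a marker of hypoxic tumour.

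The libraries held 38504854 to 48551215 reads in genes, and the constructs matched the labels. OTUB2 stood at 37.6 to 42.6 RPKM in its own group, against 1.04 to 1.58 RPKM elsewhere, and SNX29P2 at 41.0 to 55.1 RPKM in its group, against at most 0.0665 RPKM elsewhere. Among markers of the cell type, the keratins KRT18 (100.6 to 146.7 RPKM) and KRT8 (25.7 to 36.5 RPKM) were high, whereas KRT19 and EPCAM did not exceed 0.0560 RPKM. The ovarian marker WT1 was at 0.524 to 1.37 RPKM and PAX8 at 0.149 to 0.421 RPKM, and MSLN did not exceed 0.0161 RPKM. COL1A1, a collagen of stromal cells, reached 45.5 to 86.0 RPKM and the endothelial cadherin CDH5 17.6 to 23.6 RPKM, while COL1A2 and VWF, which mark the same cells, did not exceed 0.0168 RPKM. One library stood apart: OTUB2 replicate 1 held 46220 reads of the haemoglobin genes, 0.109% of its reads, against at most 86 reads in any other library. Its red cell markers summed to 1204 RPKM and its leukocyte markers to 5.31 RPKM. The CA9 results, the differences of SLC4A7, SLC16A3 and BSG, and the larger list counts with OTUB2 are also given without it.

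CA9 was lower in every library of both overexpression groups than in any vector library, and it passed the test. It reached the level needed for testing in the vector libraries alone, so it could only be tested because it was high there. Its level was 3.96, 6.75 and 2.29 RPKM in the vector libraries, from 282, 434 and 158 reads. With OTUB2 it was read at 0.198, 0.148 and 0.0900 RPKM, from 14, 12 and 6 reads, and with SNX29P2 at 0.104, 0.330 and 0.152 RPKM, from 8, 22 and 12 reads. The lowest vector library was far above the highest of the other 6, and the OTUB2 and SNX29P2 values overlapped. The group means were 4.33 ± 2.25 RPKM (SD, n = 3) with vector, 0.145 ± 0.0539 RPKM (SD, n = 3) with OTUB2 and 0.196 ± 0.119 RPKM (SD, n = 3) with SNX29P2. In bulk RNA, fewer cells that express CA9 and less CA9 RNA per cell cannot be told apart.

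**Figure D1:**
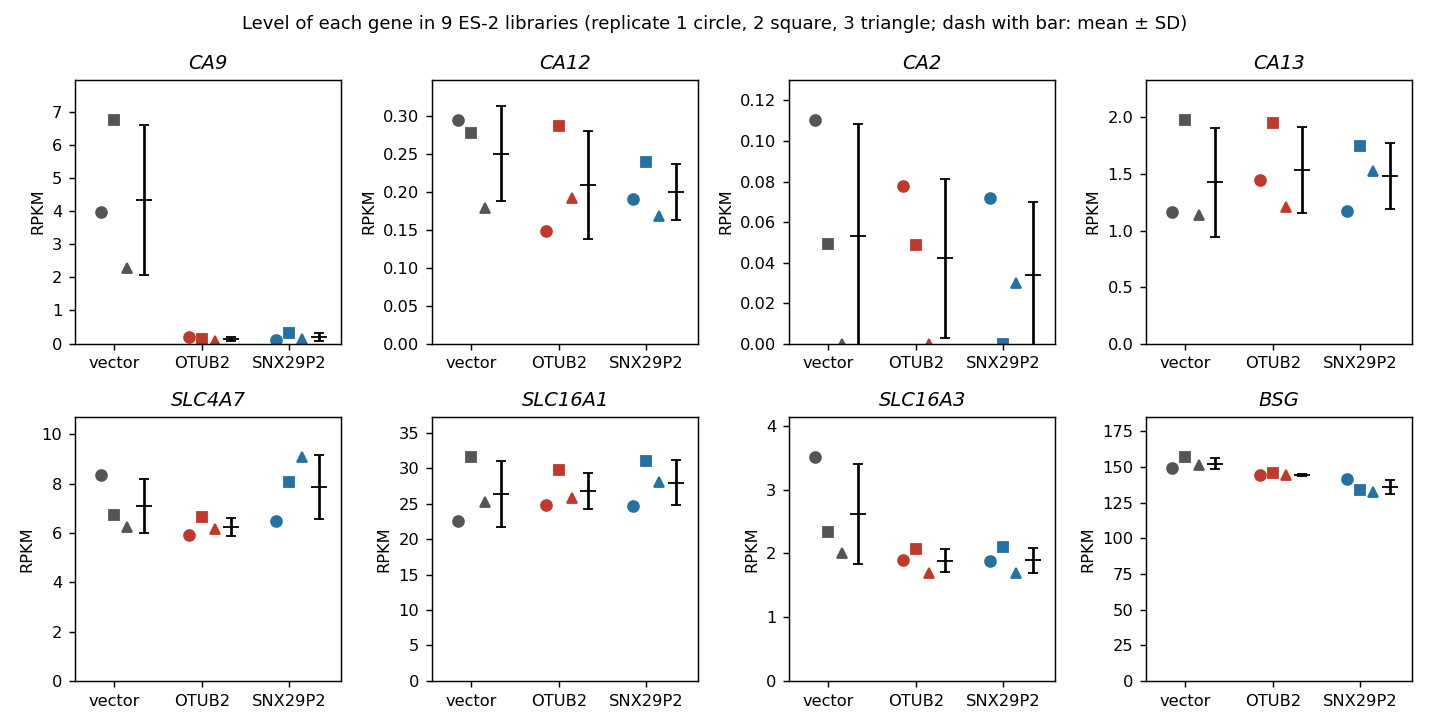
Level of each gene in RPKM (vertical axes from 0, each with its own scale) in the 9 libraries, by group; symbols give the replicate number, and the dash with its bar is the mean ± SD over 3 libraries. CA9 falls from 2.29 to 6.75 RPKM with vector to at most 0.330 RPKM in both other groups, while for CA12, CA2, CA13, SLC4A7, SLC16A1 and SLC16A3 each overexpression group overlaps vector.

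In the fit over all genes, CA9 fell by 4.07 on the log2(RPKM + 0.1) scale with OTUB2 (95% interval -5.01 to -3.13; limma, Benjamini-Hochberg adjusted p = 0.0173), a 16.8-fold lower level. With SNX29P2 it fell by 3.85 on the same scale (95% interval -4.79 to -2.90; limma, adjusted p = 0.0168), a 14.4-fold lower level. CA9 was the single one of the 6 tested genes called in either comparison, against a background of 0.0181% of 16533 genes for OTUB2 (0.0121% called lower) and 0.0363% for SNX29P2 (0.0181% called lower). The filter asked for 0.5 RPKM or more in 3 libraries, which CA9 had in 3 vector libraries and in 0 of each other group, so this count is no support for CA9. With no filter, the adjusted p of limma was 0.0435 for OTUB2 and 0.0520 for SNX29P2. The 2 comparisons share the vector libraries. Between the 2 overexpression groups, CA9 differed by -0.22 (OTUB2 minus SNX29P2, 95% interval -1.16 to 0.72, limma adjusted p = 1.00). In RPKM + 0.1 that interval is 0.446 to 1.65 times the SNX29P2 value, and it is no bound on the ratio of levels. By limma, 0 of the 6 tested genes were called between these 2 groups, with a background of 0.0242%. SLC4A7 alone had an unadjusted p under 0.05 in limma, where 2.43% of all genes had one. By voom on the recovered reads 0 were called and 1 had such a p, where 2.09% of all genes had one.

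The pseudocount of 0.1 RPKM makes these folds smaller than the ratio of reads, and with a pseudocount of 1 RPKM the differences were -2.13 and -2.07, both called (limma, adjusted p = 0.0486 and 0.0315). Per read in genes, CA9 had 29.2 times as many reads in the vector group as in the OTUB2 group (874 against 32 reads; 95% counting interval 20.5 to 42.9) and 22.6 times as many as in the SNX29P2 group (42 reads; 16.6 to 31.6). These intervals cover counting error only. All 9 CA9 counts and all 9 CA12 counts were even numbers. So were 5 of 9 for CA2 and SLC4A7, 4 of 9 for CA13, SLC16A1 and BSG, and 3 of 9 for SLC16A3. Over all detected genes below 1000 reads, 58.1% to 60.4% of the counts in a library were even. Whether both mates of a read pair were counted was not tested, and if they were, the printed CA9 reads stand for fewer fragments. With the CA9 counts so taken, at 437, 16 and 21, the same ratios had intervals of 17.8 to 51.5 and 14.6 to 36.9.

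The call in each single comparison depended on most of the libraries. With OTUB2 the log2 difference stayed between -4.45 and -3.69 whichever library was left out, but the adjusted p of limma rose to 0.128 without vector replicate 1, 0.117 without vector replicate 2, 0.0693 without OTUB2 replicate 1, 0.105 without OTUB2 replicate 2 and 0.0879 without OTUB2 replicate 3. With SNX29P2 the log2 difference stayed between -4.23 and -3.47, and the adjusted p of limma rose to 0.145 without vector replicate 1, 0.112 without vector replicate 2, 0.0771 without SNX29P2 replicate 1 and 0.123 without SNX29P2 replicate 3. The call was also lost with only the groups compared in the fit (limma, adjusted p = 0.0603 for OTUB2 and 0.0606 for SNX29P2) and for OTUB2 with voom (0.0893). With both overexpression groups set together against vector, CA9 fell by 3.96 (95% interval -4.78 to -3.14; limma, adjusted p = 0.00373), against a background of 0.0605% of genes called (0.0363% lower). With each of the 9 libraries left out in turn, its adjusted p in limma was between 0.00426 and 0.0425, and 0.0107 without OTUB2 replicate 1, the library with blood RNA. These fits kept the genes that pass the filter with all 9 libraries: with a vector library gone, CA9 would no longer pass it, and a filter of 1 RPKM in 6 libraries leaves CA9 untested. With no filter the adjusted p of limma for both groups was 0.0153.

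**Figure D2:**
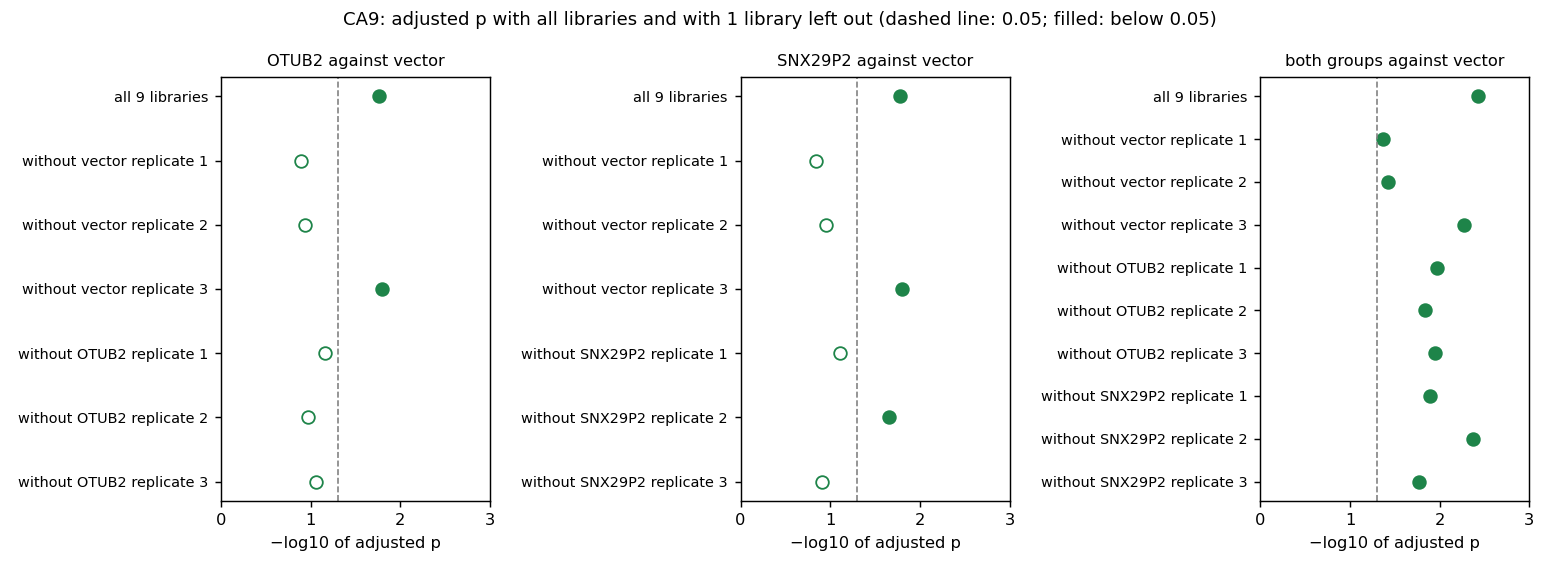
Adjusted p of CA9 as −log10 (horizontal axis) with all 9 libraries and with 1 library left out (rows), in 3 comparisons; the dashed line is an adjusted p of 0.05 and filled points pass it. The adjusted p exceeds 0.05 without 5 of 6 libraries with OTUB2 and 4 of 6 with SNX29P2, and lies between 0.00426 and 0.0425 when both groups are set together; the genes tested are those that pass the filter with all 9 libraries.

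CA9 lies on chromosome 9, 35673856 to 35681159 of GRCh38 on the plus strand in GENCODE 29. Its start overlaps ARHGEF39, a guanine nucleotide exchange factor gene on the opposite strand, by 643 exonic bases, or 38.5% of the CA9 length. The sources used here do not say whether the counting used strand, so reads in that stretch cannot be assigned to a gene. ARHGEF39 itself stood at 3.26 to 3.85 RPKM in all 9 libraries, with log2 differences from vector of -0.11 for OTUB2 and -0.02 for SNX29P2. The nearest tested genes did not pass the test either. RMRP, an RNA component of a ribonuclease, differed by 0.64 and 0.76 and CCDC107 by 0.15 and 0.11 for OTUB2 and SNX29P2. On the other side, the tropomyosin TPM2 differed by -0.20 and -0.19, the talin TLN1 by -0.04 and -0.10, and the transcription factor gene CREB3 by 0.00 and -0.09.

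Since CA9, SLC16A3 and BSG carry the letters of the HIF binding core in their promoter windows, those stretches are shown. RefSeq windows (GRCh38.p14, 250 bases before to 50 after a start) were matched for 5 of the 8 genes, CA9, CA12, SLC4A7, SLC16A3 and BSG. The capitals mark ACGTG, searched on both strands.
CA9, chr9:35673898-35673927, plus strand: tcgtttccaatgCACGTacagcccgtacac
SLC16A3, chr17:82228962-82228991, plus strand: cgccaggcggtgACGTGcgcgggggACGTG
BSG, chr19:572391-572420, plus strand: gcaacgccgggtCACGTGcgccgccgcccg
In CA9 the match lies on the strand opposite to the gene, 18 bases before the RefSeq start, in a noncoding exon stretch of GENCODE 29. SLC16A3 has 2 matches on its own strand, the first 68 bases before the start, and BSG has a palindrome that counts once on each strand, 193 bases before the start. Both of these stretches are intronic in GENCODE 29, which has longer transcripts. ACGTG was found in 21.4% of all 35116 RefSeq windows and in 24.9% of 27305 genes. The other HIF core, GCGTG, was found in 36.5% of windows and in 40.6% of genes, and CA12, SLC4A7, SLC16A3 and BSG hold it. A match of these letters is a description of the window, and none of the measurements here bears on binding.

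CA12, the other membrane carbonic anhydrase of the set (chromosome 15, 63321378 to 63382161), was low throughout. Its level was 0.295, 0.277 and 0.179 RPKM with vector, 0.148, 0.287 and 0.192 RPKM with OTUB2, and 0.191, 0.240 and 0.168 RPKM with SNX29P2. The 3 groups overlapped, and CA12 did not pass the filter in any library. Without a filter its log2 difference from vector was -0.19 with OTUB2 (95% interval -0.79 to 0.42; limma, adjusted p = 0.924) and -0.22 with SNX29P2 (95% interval -0.82 to 0.39; limma, adjusted p = 0.914).

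The share of CA9 among the membrane enzymes was lower in all 6 overexpression libraries. Of the summed RPKM of CA9, CA12, CA4 and CA14, which all face outward, CA9 made up 91.1%, 95.02% and 91.1% in the vector libraries. With OTUB2 its share was 43.8%, 28.1% and 30.5%, and with SNX29P2 it was 26.6%, 50.4% and 43.8%. The vector libraries lay apart from the other 6. CA12 was low throughout, and CA4 and CA14 did not exceed 0.0681 and 0.0967 RPKM. The shares in this paragraph thus follow from the CA9 values given above, and their tests are no further support. In an exact two-sided permutation test, p was 0.1 for each overexpression group against vector, the smallest that 3 against 3 allows, and 0.7 between OTUB2 and SNX29P2. For both groups together against vector the exact permutation p was 0.0238, the smallest that 6 against 3 allows, and 0.190 after Benjamini-Hochberg adjustment over 8 such tests. The difference in share was -58.3 percentage points with OTUB2, and -63.1 without OTUB2 replicate 1. Over 12 carbonic anhydrase genes, the summed level was 7.79 ± 2.93 RPKM (SD, n = 3) with vector, 3.60 ± 0.562 RPKM with OTUB2 and 3.71 ± 0.417 RPKM with SNX29P2. CA9 was 53.5 ± 8.37% of that sum with vector, 3.99 ± 1.23% with OTUB2 and 5.09 ± 2.50% with SNX29P2. The largest contributor in the latter groups was CA13, at 42.3 ± 4.50% and 39.8 ± 4.49%, against 18.8 ± 3.45% with vector.

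The cytosolic enzymes CA2 and CA13 lie near each other on chromosome 8 (85463852 to 85481493 and 85220587 to 85284073). CA2 was barely detected, with 0 to 10 reads a library: 0.110, 0.0489 and 0 RPKM with vector, 0.0777, 0.0485 and 0 RPKM with OTUB2, and 0.0719, 0 and 0.0299 RPKM with SNX29P2. It did not pass the filter. Without a filter its log2 difference from vector was -0.08 with OTUB2 (95% interval -0.84 to 0.68; limma, adjusted p = 1) and -0.16 with SNX29P2 (95% interval -0.92 to 0.60; limma, adjusted p = 0.977), so no difference was detectable at this depth. CA2 is abundant in red cells, yet in OTUB2 replicate 1 it had 7 reads, fewer than the 10 reads of vector replicate 1. The red cell enzyme CA1 had 6 reads there, against at most 5 in the other libraries.

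**Figure D3:**
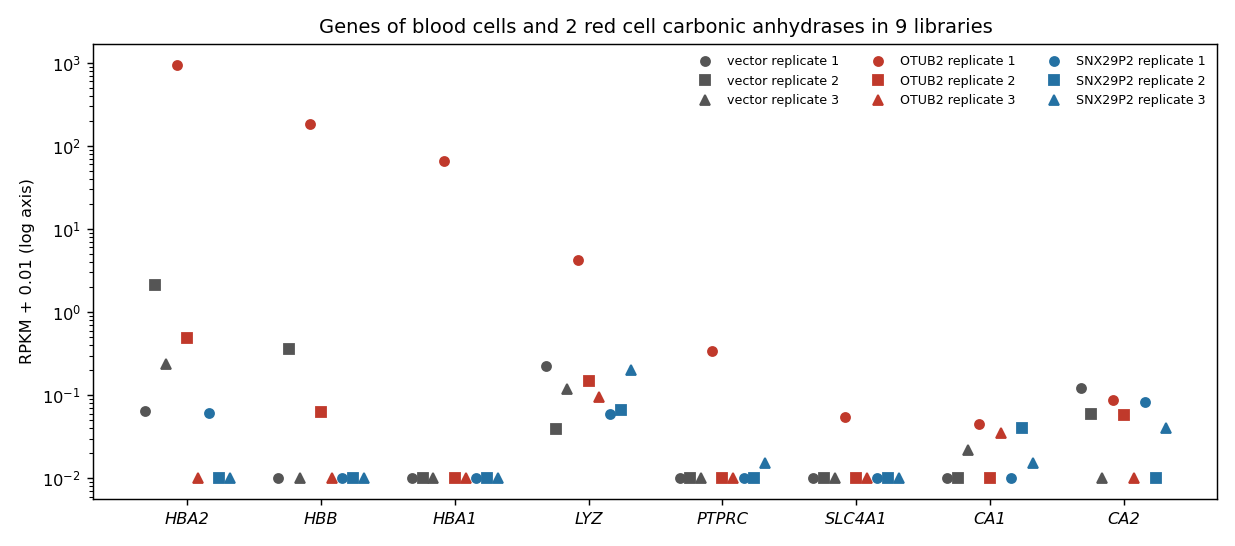
RPKM + 0.01 on a log axis of genes of blood cells and of the red cell carbonic anhydrases CA1 and CA2 in the 9 libraries, by group (colour) and replicate number (symbol). HBA2, HBB, HBA1, LYZ and PTPRC are highest in OTUB2 replicate 1, at 952, 186, 65.9, 4.22 and 0.332 RPKM, while CA2 there is below vector replicate 1.

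CA13 was at 1.17, 1.98 and 1.13 RPKM with vector, 1.45, 1.95 and 1.20 RPKM with OTUB2, and 1.17, 1.75 and 1.53 RPKM with SNX29P2. All 3 groups overlapped. The log2 difference from vector was 0.12 with OTUB2 (95% interval -0.44 to 0.68; limma, adjusted p = 0.971) and 0.08 with SNX29P2 (95% interval -0.48 to 0.64; limma, adjusted p = 0.962). CA13 was highest in the library numbered 2 in each of the 3 groups, as was SLC16A1, and the labels do not say what the numbers mark.

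SLC4A7, the bicarbonate importer (chromosome 3, 27372721 to 27484420), was read at 8.33, 6.72 and 6.26 RPKM with vector, 5.92, 6.66 and 6.15 RPKM with OTUB2, and 6.49, 8.06 and 9.06 RPKM with SNX29P2. The groups overlapped in every pairing. It differed from vector by -0.17 on the log2 scale with OTUB2 (95% interval -0.49 to 0.14; limma, adjusted p = 0.870) and by 0.14 with SNX29P2 (95% interval -0.17 to 0.45; limma, adjusted p = 0.830). The difference between OTUB2 and SNX29P2 was -0.32 (95% interval -0.63 to -0.01; limma, adjusted p = 1.00). Single libraries moved these values: with OTUB2 the difference was -0.06 without vector replicate 1 and -0.14 without OTUB2 replicate 1. With SNX29P2 it was 0.26 without vector replicate 1, 0.06 without vector replicate 3, 0.27 without SNX29P2 replicate 1 and 0.04 without SNX29P2 replicate 3. For OTUB2 minus SNX29P2 it was -0.21 without SNX29P2 replicate 3.

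The lactate transporters stood at different heights. SLC16A1 (chromosome 1, 112911847 to 112957013) was at 22.5, 31.5 and 25.2 RPKM with vector, 24.9, 29.7 and 25.8 RPKM with OTUB2, and 24.7, 31.0 and 28.1 RPKM with SNX29P2. The libraries of the 3 groups covered nearly one range, with log2 differences from vector of 0.03 (95% interval -0.27 to 0.32; limma, adjusted p = 0.988) and 0.09 (95% interval -0.21 to 0.38; limma, adjusted p = 0.903).

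SLC16A3, the HIF target among them (chromosome 17, 82228397 to 82261129), was at 3.51, 2.33 and 2.01 RPKM with vector, 1.90, 2.07 and 1.70 RPKM with OTUB2, and 1.87, 2.10 and 1.70 RPKM with SNX29P2. Vector replicate 1 was the highest of the 9, and vector replicate 3 lay within the range of the other groups. The log2 difference from vector was -0.42 with OTUB2 (95% interval -0.84 to 0.01; limma, adjusted p = 0.746) and -0.42 with SNX29P2 (95% interval -0.84 to 0.01; limma, adjusted p = 0.618). Without vector replicate 1 the differences were -0.20 and -0.19, and without OTUB2 replicate 1 that with OTUB2 was -0.43. The log2 ratio of SLC16A1 to SLC16A3 within a library was 2.68, 3.76 and 3.65 with vector, 3.71, 3.85 and 3.93 with OTUB2, and 3.72, 3.88 and 4.05 with SNX29P2. The exact two-sided permutation p was 0.2 for each group against vector and 0.0714 for both together, or 0.267 and 0.2 after adjustment over the 8 tests. The differences of 0.47, 0.52 and 0.49 rested on vector replicate 1: without it they were 0.13, 0.18 and 0.15, and the exact permutation p for both together was 0.214. SLC16A3 shares 482 exonic bases, 5.36% of its length, with CSNK1D on the opposite strand.

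BSG, the chaperone of both transporters (chromosome 19, 571277 to 583493), was the most abundant of the 8. It was read at 149.3, 156.7 and 151.0 RPKM with vector, 144.1, 145.4 and 144.0 RPKM with OTUB2, and 141.3, 133.9 and 132.6 RPKM with SNX29P2. Each group lay apart from the other 2, with vector highest and SNX29P2 lowest. Together with CA9, that makes 2 of 6 tested genes whose groups did not overlap and were lower than vector, where 4.91% of all genes did so for OTUB2 and 5.53% for SNX29P2. For both groups together it was 2.44% of all genes. CA9 passed the filter only through the vector libraries, so its lower and non-overlapping groups were fixed by the filter. It is no support in this count, which leaves BSG alone. The differences were small and did not pass the test: -0.08 with OTUB2 (95% interval -0.19 to 0.04; limma, adjusted p = 0.839), -0.16 with SNX29P2 (95% interval -0.28 to -0.05; limma, adjusted p = 0.502) and 0.09 for OTUB2 minus SNX29P2 (95% interval -0.02 to 0.20; limma, adjusted p = 1.00). Without OTUB2 replicate 1 the difference with OTUB2 was -0.07. Between OTUB2 and SNX29P2, 8.35% of all genes had groups that did not overlap in either direction.

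**Figure D4:**
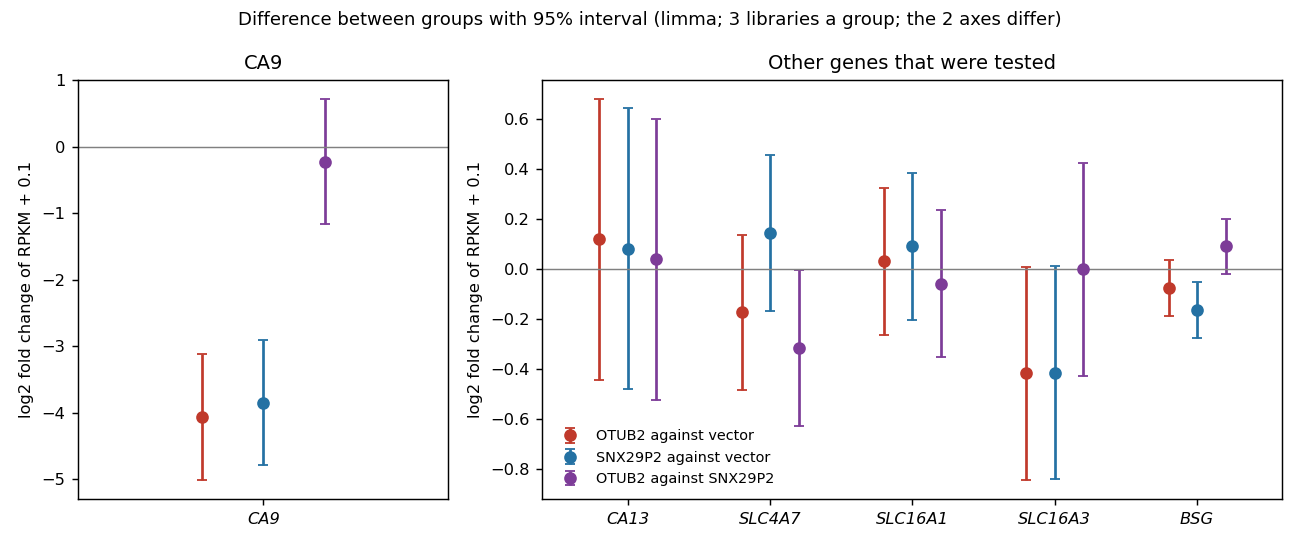
Differences between groups in log2(RPKM + 0.1) with 95% intervals from limma (vertical axes, which differ between the panels) for the 6 tested genes in 3 comparisons (colours), with 3 libraries a group. CA9 lies at -4.07 and -3.85 against vector, while no other gene exceeds 0.42 in size.

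Ordered by level per length, the vector group ran BSG, SLC16A1, SLC4A7, CA9, SLC16A3, CA13, CA12 and CA2. The neighbours SLC4A7 and CA9, and CA9 and SLC16A3, overlapped between libraries, and the other neighbours down to CA12 and CA2 did not. In both overexpression groups CA9 stood at rank 7 instead of rank 4, next to CA12, with which it overlapped, and SLC16A3 and CA13 overlapped as well. The order of the other 7 genes was the same in all 3 groups.

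Beyond the 8 genes, 10 lists of related genes held 134 different names, of which 126 were in the table and 92 were tested, and limma and voom called 0 of these with OTUB2, with SNX29P2 or between them. At an unadjusted p under 0.05 limma had 5 with OTUB2, 9 with SNX29P2 and 1 between them. The share of all genes with such a p in limma was 6.73%, 8.21% and 2.43%. By voom the counts were 10, 11 and 2, and the shares of all genes 6.60%, 8.135% and 2.09%. Over all genes tested, the median log2 difference from vector was 0.01 for OTUB2 and for SNX29P2, with 48.0% and 46.4% of genes lower. The genes of the vacuolar proton pump, which acidifies organelles, lay mostly above vector without passing the test: 18 of 20 with OTUB2 (median 0.08) and 17 of 20 with SNX29P2 (median 0.09). Without OTUB2 replicate 1 that count was 14 of 20 (median 0.03). The catalytic pump subunit ATP6V1A differed most of the 20 in both comparisons, by 0.24 and 0.27 (limma, adjusted p = 0.616 and 0.488). It was at 9.95 ± 0.129 RPKM with vector, 11.8 ± 0.694 RPKM with OTUB2 and 12.1 ± 0.600 RPKM with SNX29P2 (SD, n = 3).

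The HIF targets other than CA9 lay mostly below vector without passing the test, 17 of 22 with OTUB2 (median -0.13) and 15 of 22 with SNX29P2 (median -0.07). Without OTUB2 replicate 1 the count was 16 of 22 (median -0.12). Both comparisons use the same vector libraries, here and in the other lists, so their counts are not independent. The spread was uneven: BNIP3 was at 29.6 ± 9.74 RPKM with vector and 22.3 ± 0.436 RPKM with OTUB2 (SD, n = 3). VEGFA went the other way, at 6.89 ± 0.138 RPKM and 6.14 ± 1.01 RPKM. Both were named after their values were seen. What the counts become without a vector library was not tested. The glycolytic kinase PGK1 differed from vector by -0.16 and -0.14 (limma, adjusted p = 0.663 and 0.551) and the adenylate kinase AK4 by -0.33 and -0.22 (limma, adjusted p = 0.698 and 0.679). The furthest from vector was the stress-response gene DDIT4, named after its values were seen, at -0.90 and -0.99 (limma, adjusted p = 0.733 and 0.578). Of the HIF subunits and regulators, 7 of 11 were lower with OTUB2 (8 of 11 without OTUB2 replicate 1) and 3 of 11 with SNX29P2, and ARNT, the constant partner of the HIF alpha subunits, differed by 0.14 and 0.05.

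Glycolytic genes were lower in 14 of 20 with OTUB2 (median -0.04) and in 12 of 20 with SNX29P2 (median -0.02). Without OTUB2 replicate 1 the count was 11 of 20 (median -0.02). The lists overlap: HK2, LDHA, PDK1, PFKFB4, PGK1 and SLC2A1 are counted here and among the HIF targets. EGLN1 is counted among the HIF targets and among the HIF regulators. Sodium-proton exchangers and their partners, which expel protons, were lower in 6 of 8 and 5 of 8, and other bicarbonate transporters in 3 of 7 in each comparison. Without OTUB2 replicate 1 the counts with OTUB2 were 6 of 8 and 3 of 7. SLC26A6, an anion exchanger, differed by -0.32 and -0.18 (limma, adjusted p = 0.750 and 0.801). SLC26A4, another, differed by 0.44 and 0.49 (limma, adjusted p = 0.774 and 0.619). It lay at 0.428 to 0.829 RPKM, around the filter of 0.5 RPKM, with a vector mean of 0.456 RPKM. Of the other monocarboxylate transporters and partners, 3 of 4 were lower with OTUB2, also without OTUB2 replicate 1, and 2 of 4 with SNX29P2. The acid-sensing receptor GPR132 differed by -0.66 and -0.75 at 0.196 to 1.01 RPKM, and GPR4 by 0.16 and 0.21. ADAM10 and ADAM17, proteases that cut proteins from the cell surface, differed by 0.06 and 0.12 and by -0.03 and 0.11. CA5B, the mitochondrial enzyme and the other carbonic anhydrase tested, differed by -0.07 and 0.03.

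**Figure D5:**
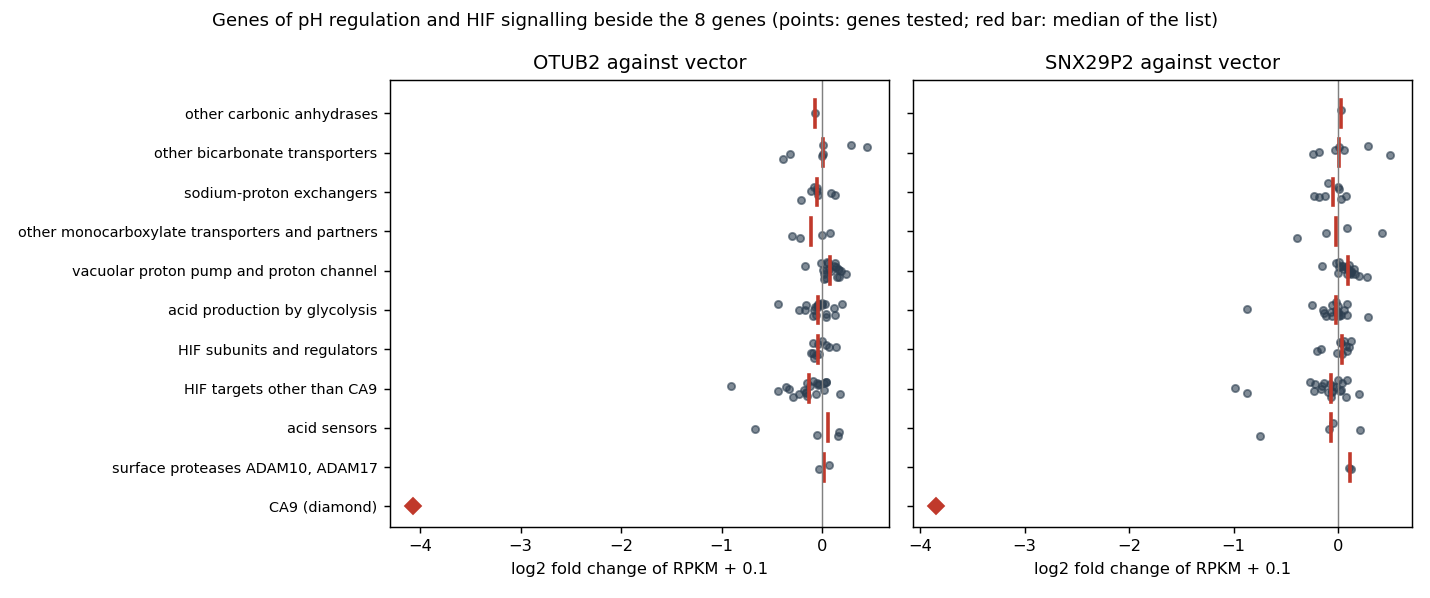
Difference from vector in log2(RPKM + 0.1) (horizontal axes) of each tested gene of the 10 lists (points, by list), with the median of a list as a red bar and CA9 as a diamond. The points lie between -0.99 and 0.49, while CA9 lies at -4.07 with OTUB2 and -3.85 with SNX29P2.

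Of the 16532 other tested genes, those whose log2 level over the 9 libraries was most like that of CA9 by Pearson's r were ABI3BP (0.994), the proteoglycan gene BGN (0.976), REEP2 (0.970), the phospholipid transfer protein gene PLTP (0.968) and RP11-37C7.1 (0.966). The libraries are the same 3 groups in each case, so a difference between vector and the rest gives a high r by itself. ABI3BP stood at 0.626 to 0.878 RPKM with vector and at most 0.299 RPKM in the other groups. REEP2 stood at 0.604 to 0.981 RPKM and at most 0.412 RPKM. Like CA9, both passed the filter of 0.5 RPKM only through the vector libraries, so their likeness to CA9 is no support. BGN was at 6.24 ± 1.10 RPKM with vector, 2.26 ± 0.147 RPKM with OTUB2 and 1.88 ± 0.136 RPKM with SNX29P2 (SD, n = 3), and fell by 1.41 and by 1.67 on the log2 scale (limma, adjusted p = 0.0109 and 0.00124). Among the 8, BSG (0.732) and SLC16A3 (0.728) were most like CA9, at ranks 590 and 615, and SLC4A7 was at 0.117, CA13 at 0.032 and SLC16A1 at -0.015.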

How the data were processed

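In all, 9 libraries of ES-2 RNA were analysed. The deposited table gives RPKM per gene with gene length; how the authors aligned and counted reads is not given in the sources used here, and the build, per the submitters' processing notes, is GRCh38. Dividing out length gave whole reads for 100% of values below 1000 reads (tolerance 0.05 reads), from which depth, 38504854 to 48551215 reads in genes, and read counts were taken. Groups came from the labels' genotype.

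Levels were tested as log2(RPKM + 0.1) in 1 limma fit (version 3.58.1, trended variance, R 4.3.3) over 9 libraries, for 16533 genes with at least 0.5 RPKM in 3 libraries, with Benjamini-Hochberg adjustment over all of them and a call at adjusted p under 0.05. Shares and ratios within a library were compared by exact permutation (scipy 1.17.1). The fit was also tested on simulated data.

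The 8 genes, the lists and the tests were chosen with earlier results of these data known. Named beside the 8 are, per list, the called genes or otherwise up to 2 with the smallest p against OTUB2, the 5 genes most correlated with CA9, and the 3 tested neighbours on each side. Some genes that this rule or the marker lists name are not reported here. Alternatives covered the pseudocount, the filter, the scaling, the fit, voom on recovered reads (3, 10, 4 and 9 genes called for OTUB2, SNX29P2, OTUB2 against SNX29P2, and both) and each library left out. The list counts without OTUB2 replicate 1 were added after seeing the data.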

Additional observations from a re-analysis of the deposited data

How the results depend on the processing

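CA9 was lower than vector under every alternative that tested it, between -4.74 and -2.13 for OTUB2, -4.46 and -2.07 for SNX29P2 and -4.60 and -2.10 for both groups on the log2 scale; the sizes nearest 0 came with a pseudocount of 1. Its limma call was lost for OTUB2 with only the groups compared (-4.07, adjusted p = 0.0603) and with voom (-4.74, adjusted p = 0.0893), and for SNX29P2 with no filter (-3.85, adjusted p = 0.0520) and with only the groups compared (-3.85, adjusted p = 0.0606), so 0 of the 8 genes were called there. A filter of 1 RPKM in 6 libraries left CA9 untested by its construction, with 0 of the 8 genes called in the comparisons with vector. The number of all genes called was 3 for OTUB2, and 7 with no filter and 1 with only the groups compared. It was 6 for SNX29P2, and 1 with the stricter filter and 10 with voom. It was 4 between OTUB2 and SNX29P2, and 1 with the stricter filter, and 10 for both groups against vector, and 3 with the stricter filter. The cause of these moves was not tested.

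With 1 library left out and the genes tested kept, CA9 ranged from -4.45 to -3.69 for OTUB2, -4.23 to -3.47 for SNX29P2 and -0.45 to 0.0863 for OTUB2 minus SNX29P2, a difference that was also 0.0315 under quantile normalization. The genes called ranged from 1 to 8 for OTUB2 and 6 to 11 for both groups, and those of the 8 from 0 to 1 for OTUB2 and for SNX29P2. The CA9 share of membrane enzymes differed by -57.8 to -53.1 percentage points for both groups. Differences near 0 turned sign. CA13 ranged from -0.0599 to 0.36 (OTUB2), -0.0528 to 0.32 (SNX29P2), -0.14 to 0.19 (OTUB2 minus SNX29P2) and -0.0336 to 0.34 (both). SLC16A1 ranged from -0.0788 to 0.16, -0.0191 to 0.22, -0.15 to 0.0180 and -0.0489 to 0.19 in the same order. SLC4A7 ranged from -0.10 to 0.10 for both groups. For OTUB2 minus SNX29P2, SLC16A3 ranged from -0.0728 to 0.0721, and was 0.0021 with median-of-ratios scaling, 0.0195 with quantile normalization and 0.0079 with voom, and the log2 ratio of SLC16A1 to SLC16A3 ranged from -0.14 to 0.0246.

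The libraries share only numbers. Deviations of same-numbered libraries correlated at -0.018 to 0.270, and those of differently numbered libraries at -0.230 to 0.050, so the ranges overlap. Each of the 9 libraries correlated best with a library of its own number, a hint from the data and not the design. For vector replicate 1 the margin was slight, 0.0506 with OTUB2 replicate 1 against 0.0502 with SNX29P2 replicate 3. With the replicate block, CA9 kept its limma calls (adjusted p = 0.0380 for OTUB2, 0.0222 for SNX29P2 and 0.00703 for both), and 4, 9, 4 and 22 genes were called for OTUB2, SNX29P2, OTUB2 against SNX29P2, and both.

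Depth limits the low genes: CA9 rests on 6 to 22 reads a library in the overexpression groups, all even counts, CA2 on 0 to 10 everywhere.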
